A study of Xenopus tropicalis with 2 samples.

Results

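The regions described here are the very highly covered peaks on scaffolds, the sequences of the Xenopus tropicalis assembly that had not been joined to a chromosome. A peak was included when the deposited table placed it outside the 10 chromosomes and its reads in both libraries summed to 400 or more. This held for 746 of the 124349 peaks in the table, and for 2.47% of the 30166 scaffold peaks. The peaks were chosen by their summed reads, so their high coverage is a description and was not tested.

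Xenopus tropicalis is a frog whose larvae can regrow an amputated tail, and here the posterior part of the tail was removed at Nieuwkoop-Faber stage 41. One library came from tail cells of wild-type tadpoles that had passed through a fluorescence-activated cell sorter, and the other from wild-type tail tissue that had not been sorted. Both were labelled 0 hours post amputation and were made from genomic DNA in a genome occupancy profiling assay that the labels do not name further. Neither the tadpoles' number nor the fluorescent population that was gated, if any, is stated in the labels, which give the dissociation and sorting text for both libraries. With 1 library in each group, variation among animals or preparations was not measured, and no test between the groups was run.

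Unplaced scaffolds are often built from sequence that occurs in several copies, since repeats are what stops an assembler from joining a contig to its neighbours. Where the genome holds more copies of a sequence than the assembly does, the reads of all copies can gather on the assembled ones, and they do so over the whole copied stretch. Regulatory sites that are open or bound in many cells also gather reads, often over a short interval whose flanks stay at the ordinary level. A copied stretch can be short as well, so the layout of high peaks alone does not separate copied from regulatory sequence. Copy number was not measured, and its part in the results was not tested. No source used here states how reads that map to several places were handled.

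The sorted library held 3111092 reads in peaks and the unsorted library 3176954. Positions are those of the deposited table, whose genome build no source used here gives. Every peak with a position was 400 bp wide, so read counts can be compared between peaks without a length correction. The median peak of the whole table had 30 summed reads, and the scaffold peaks under 400 reads had a median of 40. The 746 highly covered scaffold peaks had a median of 597.5 reads, with quartiles at 469 and 865.5 and a highest value of 9046. On the chromosomes, 350 of 93635 peaks (0.374%) reached 400 reads, with a median of 571, quartiles at 471 and 771 and a highest value of 28968. The typical highly covered peak was thus alike in depth in both places. This likeness is partly built in, because both sets were cut at the same 400 reads. None of the 17 peaks on sequences named "unplaced" was among them, the highest of those having 167 reads.

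Of the 746, 6 peaks had exactly 400 reads. Of those, 3 lay at 52656 to 53055 of scaffold_235, with 202 sorted and 198 unsorted reads, at 5465 to 5864 of scaffold_3298, with 186 and 214, and at 11527 to 11926 of scaffold_345, with 192 and 208. Just under the threshold were peaks starting at 87579 of scaffold_405 (191 sorted and 208 unsorted reads), 490361 of scaffold_499 (186 and 213) and 2169 of scaffold_1034 (194 and 204). No gap in coverage separated the 2 sides, since 174 scaffold peaks under the threshold had at least 350 reads.

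Highly covered peaks were spread over many scaffolds, mostly 1 or 2 to a scaffold, with a few scaffolds holding a large number. They lay on 357 of the 3706 scaffolds that had any peak (9.63%). A single highly covered peak was present on 222 of these scaffolds, 2 on 74, 3 on 28, 4 on 15, and 5 or more on 18. The 18 scaffolds with 5 or more held 232 of the 746 peaks. The 4 scaffolds with the most, scaffold_499, scaffold_1360, scaffold_236 and scaffold_837, held 87, 19, 17 and 16, which together is 18.6% of the peaks and 20.5% of their reads. On 40 scaffolds lay 50% of the reads in highly covered peaks. Neighbouring highly covered peaks of a scaffold never overlapped, and the median gap between them was 2229 bp.

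**Figure D1:**
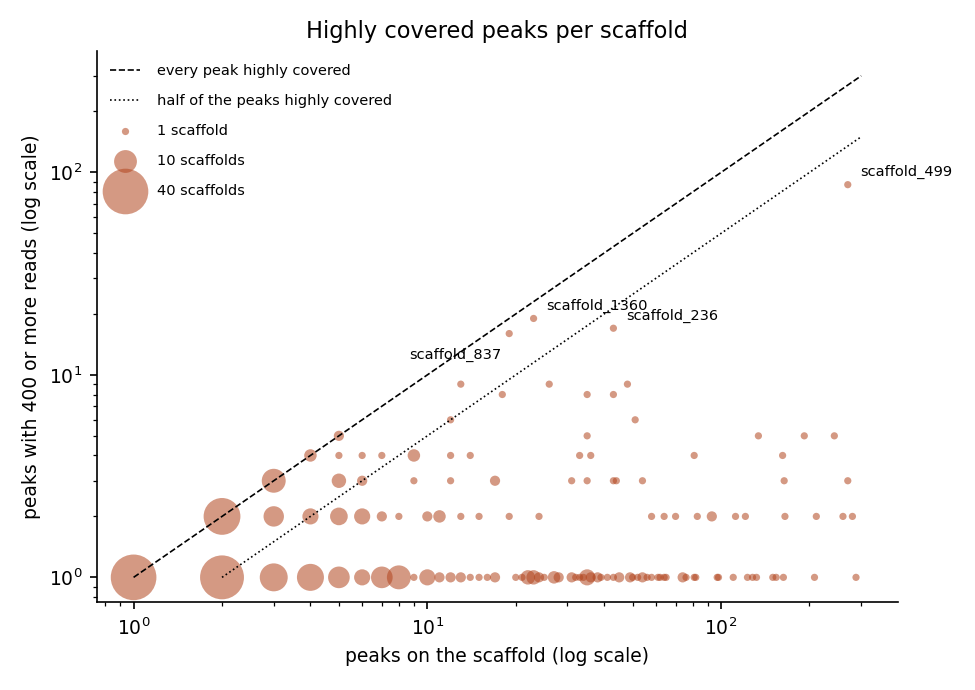
Number of peaks with 400 or more reads (y axis, log scale) against the number of all peaks (x axis, log scale) for the 357 scaffolds that hold at least 1 such peak. Circle area gives the number of scaffolds at a point. The 222 scaffolds with a single highly covered peak form the bottom row, and few scaffolds with more than 5 peaks come near the dashed line on which every peak is highly covered.

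On most scaffolds only some of the peaks were highly covered. To leave out scaffolds on which a single peak makes the answer trivial, those with 3 or more peaks were considered, of which 254 held a highly covered peak. On these 254 scaffolds, 617 of 8608 peaks (7.17%) were highly covered. All peaks were highly covered on 16 scaffolds, at least 50% were on 42, and exactly 1 peak was on 145 (57.1%). Among scaffolds with 2 peaks, both were highly covered on 26 of 63. A further 40 highly covered peaks were the only peak of their scaffold, out of 1121 scaffolds with 1 peak.

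The share declined with the size of the scaffold, measured by its number of peaks. It was 52.6% of the peaks on scaffolds with 3 or 4 peaks, 28.6% with 5 to 9, 14.5% with 10 to 29 and 3.72% with 30 or more. This decline is partly built in, because a scaffold was kept once 1 of its peaks passed. The other peaks on the same scaffolds had medians of 119.5, 138, 58 and 45 reads in the same order of size. On the larger scaffolds the remaining peaks therefore stood close to the median of 40 reads of all scaffold peaks under the threshold. On the smaller ones they stood well above it. Over all sizes, the 8028 other peaks on scaffolds with a highly covered peak had a median of 47 reads (quartiles 31 and 85), against 38 (26 and 64) for the 21392 peaks on scaffolds without one.

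The 16 scaffolds on which every one of 3 or more peaks was highly covered were short. Their peaks spanned between 2.42 and 7.68 kb, and none of the last peaks ended beyond base 7954. They held 55 of the 746 highly covered peaks. The highest peak of such a scaffold had between 1.04 and 3.68 times the reads of its lowest, with a median of 1.46. On a typical one, coverage thus varied little from peak to peak. This evenness is partly built in, because these scaffolds were kept only when every peak passed the read threshold. Whether their peaks were more even than highly covered peaks of other scaffolds was not tested.

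On scaffold_2276, the 5 peaks between 754 and 7536 had 304, 372, 230, 326 and 352 sorted reads, against 349, 389, 300, 381 and 417 unsorted reads. Each of them was lower in the sorted library, and for those starting at 3027 and 7137 the interval of the ratio lay below 0. The 5 peaks of scaffold_2657, between 860 and 7954, had 418, 334, 204, 685 and 224 sorted reads, against 482, 450, 275, 618 and 227 unsorted reads. One of them, at 5378 to 5777, was higher in the sorted library by more than counting error (log2 ratio 0.18, 95% interval 0.020 to 0.34), while those at 3096 to 3495 (-0.40, -0.61 to -0.19) and 4370 to 4769 (-0.40, -0.67 to -0.13) were lower. Of the 3 all-high scaffolds with 4 peaks, scaffold_7163 was the most covered, with 501 to 1844 summed reads a peak. Peaks of scaffold_4748 had between 446 and 655, and those of scaffold_3283 between 401 and 540. The log2 share ratio of sorted over unsorted reads was -0.42 for scaffold_7163, -0.15 for scaffold_4748 and -0.18 for scaffold_3283.

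On long scaffolds, a lone high peak among ordinary ones was the most frequent arrangement. Among the 80 scaffolds that had 30 or more peaks and at least 1 highly covered peak, 47 had exactly 1. Those lone peaks had a median of 562 reads, while the other peaks of their scaffolds had medians between 28 and 146.5 reads. The lone peak stood a median of 11.9 times above the median of the other peaks on its scaffold, with a range of 3.19 to 38.4. Part of this excess is built in, because the lone peak had to reach the read threshold while the others had to miss it. At the upper end of that range, the peak at 264476 to 264875 of scaffold_278 had 549 sorted and 794 unsorted reads, on a scaffold of 76 peaks whose others had a median of 35. This peak was chosen after its value was seen.

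Several of the most covered peaks likewise stood far above the rest of their own scaffolds. The peak at 2607 to 3006 of scaffold_4722 had 3190 sorted and 5856 unsorted reads, and the median of the 2 other peaks there was 116 summed reads. On scaffold_4409, the peak at 4615 to 5014 had 3562 sorted and 4541 unsorted reads, and the only other peak had 217. The peak at 889 to 1288 of scaffold_1674 had 2541 sorted and 3284 unsorted reads, and its 4 neighbours had a median of 132.5. High coverage on a short scaffold was therefore not always a property of the whole scaffold.

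Of the other highly covered peaks among the 10 with the most reads, the one at 727 to 1126 of scaffold_752 had 2936 sorted and 4051 unsorted reads. Those starting at 35 of scaffold_2844, 23675 of scaffold_937 and 132 of scaffold_2231 had 2689, 2376 and 2270 sorted reads, against 3420, 2883 and 2758 unsorted reads. The peak at 3882 of scaffold_5534, the only one there, had 2308 sorted and 2654 unsorted reads. The remaining pair lay at 125 of scaffold_663 (1817 sorted and 2612 unsorted reads) and at 81667 of scaffold_236 (2475 and 1862). The last was the only 1 of the 10 with more reads in the sorted library.

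Position along the scaffold was compared as well. Among the 10 with the most reads, 7 belonged to scaffolds with 3 or more peaks, and 6 of these were the first or the last peak there. On scaffolds with fewer peaks every peak is first or last. On scaffolds with 3 or 4 peaks, 72.0% of the highly covered peaks were first or last, against 44.4% of the other peaks on the same scaffolds. With 5 to 9 peaks the shares were 48.3% and 24.1%, and with 10 to 29 peaks they were 24.3% and 9.34%. On scaffolds with 30 or more peaks, 12 of 263 highly covered peaks (4.56%) were first or last, against 148 of 6803 others (2.18%). In each of the 4 size classes the share was thus higher than that of the other peaks, a difference that was not tested. Part of it can be built in, because a scaffold was kept once 1 peak passed. Scaffolds with fewer peaks, where a larger share is first or last, then weigh more among the highly covered peaks. The 14 all-high scaffolds with 3 or 4 peaks, for example, held no other peaks. The scaffold ends themselves are not in the table, so the outermost peak stands in for the end.

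The scaffold with the most highly covered peaks, scaffold_499, was raised along nearly its whole length. It held 270 peaks over 491 kb, or 5.49 per 10 kb, while the chromosomes had 0.736 per 10 kb and the median scaffold with at least 20 peaks had 2.08. Its first 7 peaks, between 4593 and 29017, had 20 to 154 summed reads with a median of 50. The following 263 peaks, from 43613 to 495974, had a median of 339 reads, and 238 of them had 200 or more. The middle 80% of these lay between 200 and 549 reads. That boundary was placed after the values were seen. Of all 270 peaks, 87 passed 400 reads. In all, the scaffold took 1.46% of the reads of the sorted library and 1.61% of those of the unsorted library. Other scaffolds had peaks about as dense, such as scaffold_708 (5.60 per 10 kb), scaffold_490 (5.37) and scaffold_497 (5.10). Their peaks had medians of 221, 257 and 223 reads and lowest values of 79, 59 and 60.

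A different layout was found on scaffold_236, where the highly covered peaks formed a block. Between 59266 and 101073, 16 of 17 peaks were highly covered, with 990 to 4337 reads and a median of 1960. The 17th had 105. Before the block, 16 peaks had a median of 58.5 reads and at most 216. After it, 9 peaks had a median of 22 and at most 32. The last peak of the scaffold, at 225301 to 225700, was highly covered again, with 1166 sorted and 1078 unsorted reads.

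Both other scaffolds of this kind were high throughout. On scaffold_1360, 19 of 23 peaks were highly covered, the median was 1016 reads and the lowest peak had 270, over 42.3 kb. On scaffold_837, 16 of 19 were, with a median of 917 and a lowest value of 235, over 82.0 kb. A further 3 scaffolds held 9 highly covered peaks each. These were 9 of 13 peaks on scaffold_1034, 9 of 26 on scaffold_591 and 9 of 48 on scaffold_374, whose peaks had medians of 522, 245.5 and 85.5 reads in that order.

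**Figure D2:**
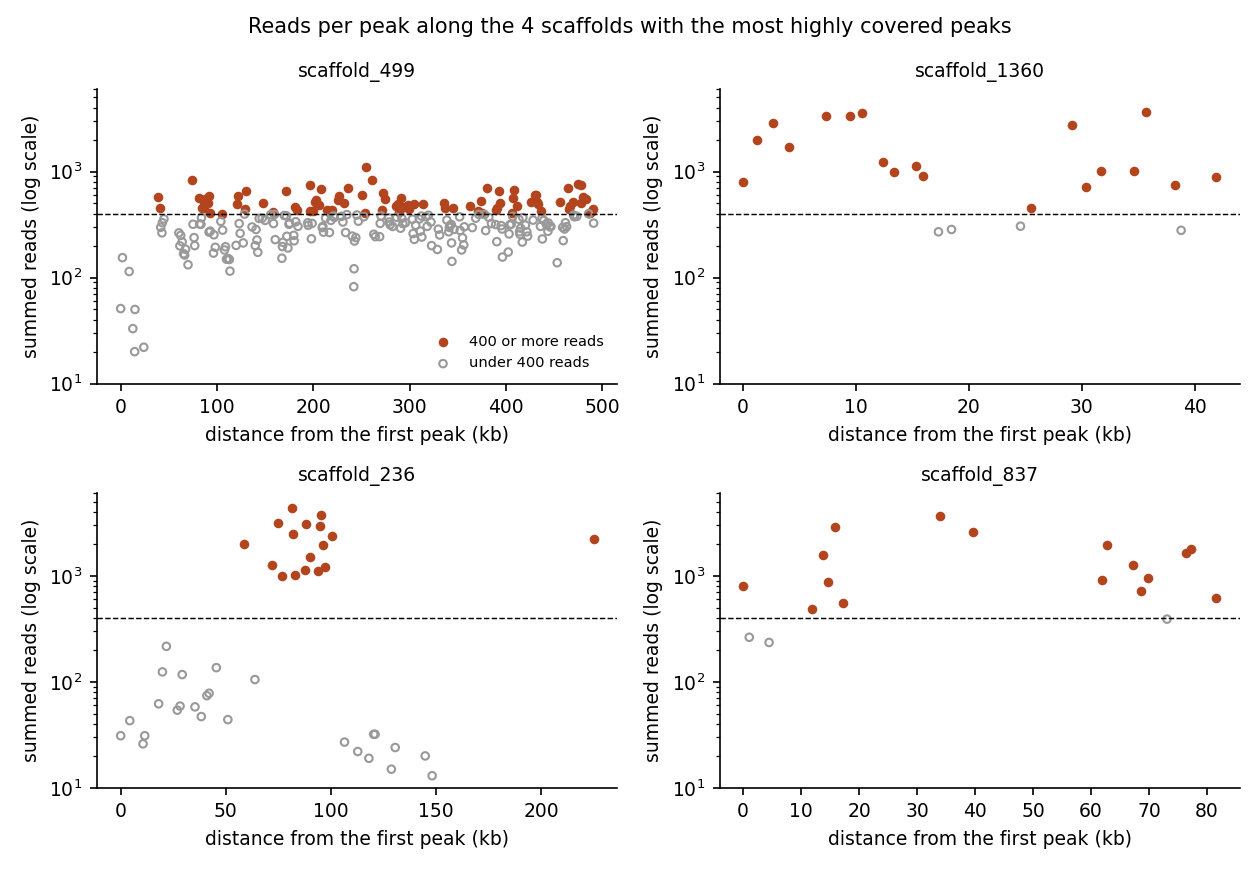
Summed reads of each peak (y axis, log scale) against its distance from the first peak of the scaffold in kb (x axis) for the 4 scaffolds with the most highly covered peaks. Filled points have 400 or more reads and open points fewer, with the dashed line at 400. Reads step up after the first 7 peaks of scaffold_499, form a block on scaffold_236, and are high from end to end on scaffold_1360 and scaffold_837.

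Highly covered chromosome peaks served to show how such peaks sit where sequence is placed. By their medians, they stood further above their surroundings than those on scaffolds. Within 50 kb, 705 of the 746 scaffold peaks had another peak. The median reads of these neighbours, taken for each highly covered peak, had a median of 258. All 350 chromosome peaks had a neighbour, and the same median of medians was 53. The scaffold peaks stood a median of 2.32 times above their neighbours (quartiles 1.36 and 9.38), against 10.2 times (3.17 and 15.5) on the chromosomes. A 5-fold excess over the neighbours was present for 37.4% of the scaffold peaks and 69.1% of the chromosome peaks. Another highly covered peak lay within 50 kb of 65.3% of the scaffold peaks and 49.4% of the chromosome peaks. Without scaffold_499, the median excess on scaffolds was 3.05 times and the share with a highly covered neighbour 60.7%. The comparison is uneven in several respects. The window held a median of 9 other peaks on scaffolds, which can be shorter than the window, and 15 on chromosomes. Ordinary peaks were shallower on chromosomes, with a median of 28 reads over all chromosome peaks, against 40 for scaffold peaks under 400 reads. Highly covered peaks made up 2.47% of scaffold peaks but 0.374% of chromosome peaks, which bears on the share with a highly covered neighbour. The part of these inequalities in the differences was not tested.

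**Figure D3:**
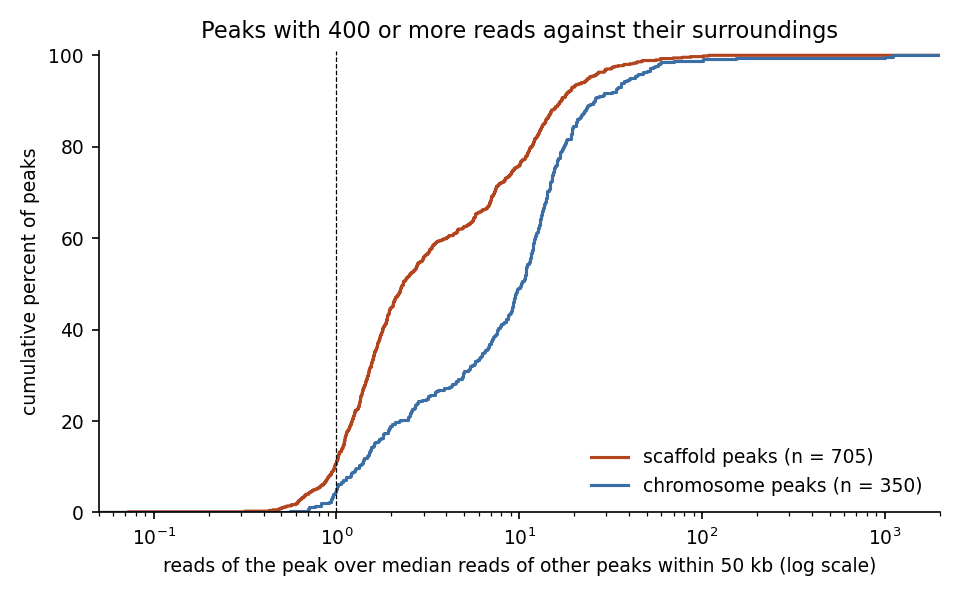
Cumulative percent of peaks with 400 or more reads (y axis) against their reads divided by the median reads of the other peaks within 50 kb (x axis, log scale), for 705 scaffold and 350 chromosome peaks with such neighbours. The scaffold curve lies left of the chromosome curve, with medians of 2.32 and 10.2.

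The comparison of libraries asks how the sorted and unsorted profiles differed. With 1 library in each group, sorting cannot be told apart from other differences between the preparations. The sum of both counts, which chose the peaks, does not fix the direction of the difference. Highly covered scaffold peaks took a smaller share of the sorted than of the unsorted library. They held 312206 sorted reads (10.04% of that library) and 365260 unsorted reads (11.5%). The log2 ratio of these shares was -0.20, with a 95% exact interval of -0.20 to -0.19 that covers counting error only. By single peak, the log2 ratio of sorted over unsorted reads, each scaled to its library total after a prior count of 0.5, had a median of -0.17 and quartiles of -0.37 and 0.023. It was below 0 for 539 peaks (72.3%). These levels depend on the scaling: with the 5000 most covered peaks as the common scale, the log2 share ratio was -0.039 and the median -0.014. For peaks under 400 reads, scaled by library totals, the log2 share ratio was -0.045 on scaffolds and 0.084 on chromosomes.

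Differences of single peaks were small but many were larger than counting error. Of the 746, 2 peaks (0.268%) differed at least 2-fold, 1 higher and 1 lower in the sorted library (0.134% each way). Over all 124349 peaks, most of them far shallower, the same rule took 9.97%, with 6.11% higher and 3.86% lower. Over the 350 chromosome peaks with 400 or more reads it took 0.857%, with 0.286% higher and 0.571% lower. A difference under 1.5-fold was found for 698 of the 746 (93.6%), against 304 of 350 chromosome peaks (86.9%). Scaled by library totals, the 95% interval lay wholly below 0 for 318 highly covered scaffold peaks (42.6%) and wholly above 0 for 64 (8.58%). Over all peaks of the table these percentages were 3.42% and 4.56%, and over chromosome peaks of 400 or more reads 46.3% and 10.9%. The scaffold shares thus stood near those of chromosome peaks of like depth. The standard deviation of the log2 ratios was 0.29 on scaffolds and 0.34 on the chromosomes. Counting error of independent reads at these depths gives 0.12 for either.

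Against chromosome peaks with 400 or more reads, the scaffold peaks had nearly the same median ratio. The chromosome peaks held 142278 sorted and 172923 unsorted reads, a log2 share ratio of -0.25 (-0.26 to -0.24), and had a median of -0.21 by peak. The medians thus differed by 0.033, with a 95% interval from ranks of -0.030 to 0.097. This interval takes every peak as an independent draw, although the peaks are not replicates. It describes the medians and is not a test, as do the intervals of median differences given below. The pooled value of the chromosome peaks leaned on a pair of them, with 28968 and 26671 summed reads and log2 ratios of -0.61 and -0.55. In the class of 1000 or more reads, the log2 share ratio was -0.24 for the scaffold peaks and -0.33 for the chromosome peaks, but -0.18 for the chromosome peaks without the pair with the most reads.

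By class of depth, the order of the medians was not constant, and the intervals of the differences given below all include 0. Among peaks with 400 to under 600 reads, the median was -0.14 for 374 scaffold peaks and -0.23 for 195 chromosome peaks. With 600 to under 1000 reads it was -0.18 for 219 scaffold peaks and -0.20 for 104 chromosome peaks. Scaffold peaks with 1000 to under 2000 reads had a median of -0.27 (n = 95), against -0.11 on the chromosomes (n = 33). At 2000 or more reads the medians were -0.29 for 58 scaffold peaks and -0.13 for 18 chromosome peaks. On scaffolds the median was thus lower in each deeper class. The log2 share ratio on scaffolds was not, at -0.14, -0.17, -0.25 and -0.23 in the same order. The chromosome median for 1000 to under 2000 reads rested on 1 run of peaks, at 20072545 to 20081036 of chromosome 10. Its 7 peaks with 1000 or more reads are nearly even between the libraries. Without that run, left out after the values were seen, the median of the other 26 was -0.32, below that of the scaffold peaks. The median difference, scaffold minus chromosome peaks, was 0.086 (-0.021 to 0.19) with 400 to under 600 reads, 0.023 (-0.065 to 0.11) with 600 to under 1000 and -0.17 (-0.35 to 0.0025) with 1000 or more, and the last was -0.050 (-0.23 to 0.13) without the run. Quartiles overlapped widely in every class.

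**Figure D4:**
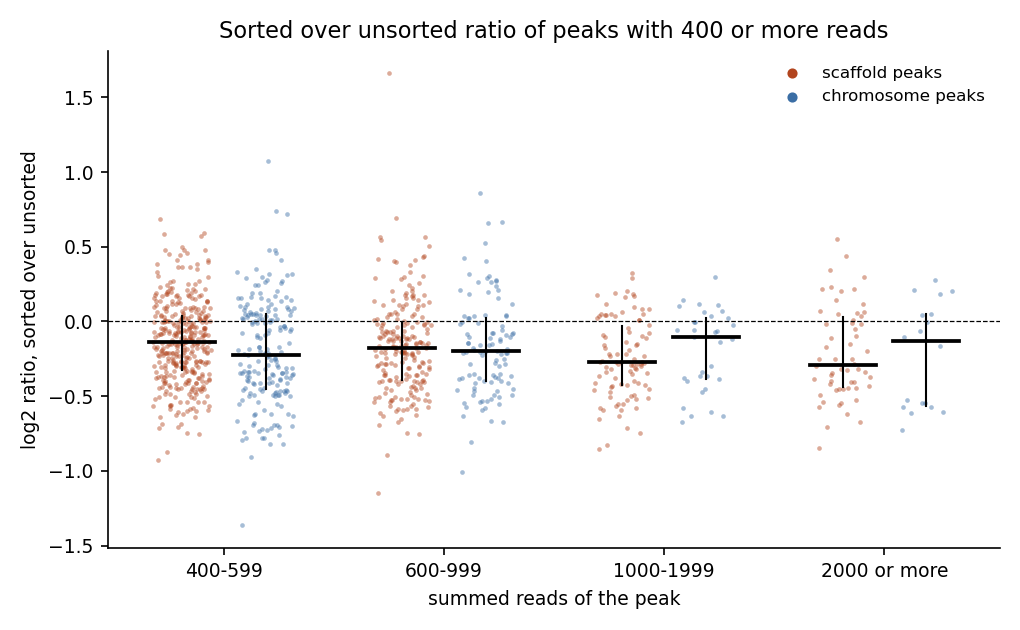
Log2 ratio of sorted over unsorted reads (y axis) for scaffold peaks and chromosome peaks with 400 or more reads, by class of summed reads (x axis). Each point is a peak, thick bars are medians and thin bars quartiles. Scaffold medians run from -0.14 in the lowest class to -0.29 in the highest, and chromosome medians lie between -0.23 and -0.11, with widely overlapping quartiles.

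The peak highest in the sorted library stood alone. At 266553 to 266952 of scaffold_199 it had 549 sorted and 177 unsorted reads, a 3.16-fold difference (log2 ratio 1.66, 1.42 to 1.92). The only other highly covered peak of that scaffold, at 15869, had a log2 ratio of -0.36, and the median of the peaks other than the one at 266553 was 42.5 reads. Ranked by the lower bound of the interval, which allows for depth, the peak at 625691 of scaffold_130 was next, with 372 sorted and 235 unsorted reads (0.69, 0.45 to 0.93). The peak at 95147 of scaffold_236 had 1740 sorted and 1211 unsorted reads (0.55, 0.45 to 0.66). Next in this order were the peaks at 100694 of scaffold_475, with 291 and 185 (0.68, 0.41 to 0.96), and at 3604 of scaffold_7535, with 486 and 336 (0.56, 0.36 to 0.77). On scaffold_7535, where all 3 peaks were highly covered, the remaining 2 were also higher in the sorted library, with log2 ratios of 0.37 and 0.43. With library totals as the scale, scaffold_7535 was the only 1 of the 16 all-high scaffolds whose pooled interval lay above 0. For 12 of them it lay below.

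At the other end, the peak at 156 to 555 of scaffold_4443 had 207 sorted and 469 unsorted reads, which is 2.22-fold lower in the sorted library (log2 ratio -1.15, -1.39 to -0.91). The scaffold peak with the most reads, on scaffold_4722, was also among the 5 lowest (-0.85, -0.91 to -0.78). By the upper bound, the peak at 268364 of scaffold_78 followed. It had 326 sorted and 619 unsorted reads (-0.89), and the peak at 3069 of scaffold_4869 had 501 and 925 (-0.85). On scaffold_4869 the only other peak was highly covered and low too (-0.71). The peak at 77255 of scaffold_837 completed this group, with 643 sorted and 1164 unsorted reads (-0.83).

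The ratios of highly covered peaks varied less within scaffolds than over all. On the 135 scaffolds with 2 or more highly covered peaks, the standard deviation of the log2 ratios was 0.28 over all 524 peaks and 0.22 around the means of their scaffolds, with counting error at 0.12. On the 74 scaffolds with exactly 2, both peaks were below 0 on 41, both above on 9, and on opposite sides on the others. These counts show little by themselves, since 72.3% of all highly covered peaks were below 0. Over these 74 scaffolds Pearson's r between the ratios of the first and second peak was 0.23 and Spearman's rho was 0.36, given as a description, since all share the same 2 libraries.

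Scaffolds with 5 or more highly covered peaks differed from each other by more than counting error. Their log2 share ratio, from the reads of these peaks pooled, ran from -0.54 to 0.26 and had an interval below 0 on 14 of the 18 and above 0 on 3. Sides of 0, here and in the paragraphs below, are those of scaling by library totals. With the 5000 most covered peaks as the common scale, 0.16 is added to every log2 ratio. This exceeds the distance from 0 of scaffold_499 (-0.089), scaffold_1360 (-0.10), scaffold_2657 (-0.11) and scaffold_345 (-0.14). It also exceeds the distance of the upper interval bounds of scaffold_130 (-0.096) and scaffold_2276 (-0.085), whose intervals would then include 0. The count of 14 therefore depends on the scale, while differences between scaffolds stay the same. All 16 highly covered peaks of scaffold_837 were below 0, with 9564 sorted and 13687 unsorted reads together (-0.49, -0.52 to -0.45). All 9 were below 0 on scaffold_591 (-0.53, -0.60 to -0.47) and on scaffold_374 (-0.47, -0.54 to -0.39). In contrast, 12 of 17 were above 0 on scaffold_236, with 19178 sorted and 17417 unsorted reads (0.17, 0.14 to 0.20). Both scaffold_490 (0.12, 0.013 to 0.24) and scaffold_497 (0.26, 0.16 to 0.36) were above 0, and on scaffold_1034 the interval included 0 (0.066, -0.0062 to 0.14).

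The less covered peaks of these scaffolds moved with the highly covered ones on some scaffolds but not on others. Of the 16 scaffolds with 5 or more highly covered peaks that also had other peaks, both sets had intervals below 0 on 8 and above 0 on 2. The interval of the highly covered peaks lay wholly below that of the others on 5 of the 16 and wholly above it on 3. On scaffold_374, for example, the 39 other peaks had a log2 share ratio of -0.40 (-0.49 to -0.31), close to that of its highly covered peaks, and on scaffold_591 the 17 others had -0.37 (-0.48 to -0.27). These scaffolds were low as a whole.

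On scaffold_19 and scaffold_124 the pooled ratio was low for the highly covered peaks and not for the other peaks of the scaffold. Those of scaffold_19, which lie between 180902 and 693836, had 210, 302, 328, 993 and 368 sorted reads, against 317, 443, 499, 1472 and 545 unsorted reads. Their log2 ratios were nearly the same, from -0.57 to -0.52. The 238 other peaks of the scaffold had a log2 share ratio of 0.012 (-0.039 to 0.063). On scaffold_124 the 5 highly covered peaks had -0.43 (-0.55 to -0.32) together, but spread from -0.64 to -0.063 by peak. The 187 others had 0.071 (0.014 to 0.13). Pooled over the chromosomes, peaks with 400 or more reads were likewise lower than those under 400, with -0.25 against 0.084. Scaffold_19 and scaffold_124 were singled out after their values were seen, among the 18 with 5 or more highly covered peaks.

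The 3 scaffolds with the interval of the highly covered peaks wholly above that of the others were scaffold_499, scaffold_1360 and scaffold_497. On scaffold_497 the 5 highly covered peaks had 0.26 (0.16 to 0.36) and the 30 others 0.0044 (-0.066 to 0.074). On scaffold_499, the 87 highly covered peaks had 22019 sorted and 23919 unsorted reads (-0.089, -0.12 to -0.063), and the 183 others had 23250 and 27375 (-0.21, -0.23 to -0.18). On scaffold_1360, the 19 highly covered peaks had -0.10 (-0.14 to -0.073) and the 4 others -0.59 (-0.76 to -0.41). Divided at 2000 reads after the values were seen, the 6 deepest peaks of scaffold_1360 had 9842 sorted and 9690 unsorted reads (0.053, 0.012 to 0.093), against 5937 and 7631 for its 13 other highly covered peaks (-0.33, -0.38 to -0.28). Of the highly covered peaks of scaffold_236, the 8 deepest had 0.24 and the 9 others 0.017. Scaffold_837 did not share this, with -0.54 for its 3 deepest and -0.45 for its 13 other highly covered peaks. Among the highly covered peaks of scaffold_1360 and scaffold_236, the deeper ones were thus relatively higher in the sorted library. This did not extend to the 26 peaks of scaffold_236 under 400 reads, which had 0.27 (0.13 to 0.42).

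**Figure D5:**
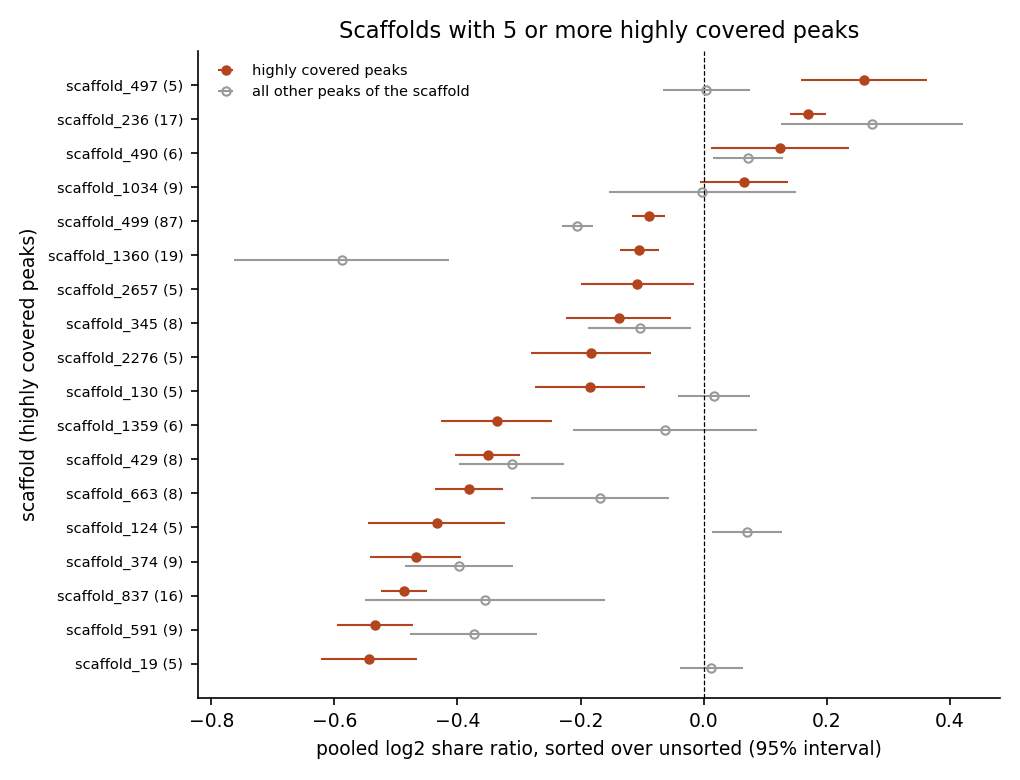
Pooled log2 share ratio of sorted over unsorted reads with its 95% exact interval (x axis) for the 18 scaffolds with 5 or more highly covered peaks (y axis, number of such peaks in parentheses). Filled points are the highly covered peaks and open points all other peaks of the scaffold, which 2 scaffolds lack. Filled and open points lie far apart on scaffold_19, scaffold_124 and scaffold_1360 and close together on scaffold_374 and scaffold_429.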

How the data were processed

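Sorted and unsorted tail cells gave 1 library of genomic DNA each. The authors deposited raw counts of reads over 1 merged peak set. The submitters' processing notes name featureCounts, MACS2, SAMtools, both Bowtie and Bowtie2, and Trim Galore. No source used here gives their order, the genome build or the treatment of reads that map to several places. That treatment bears on any copied sequence among these peaks, since a rule that drops, splits or repeats such reads moves its counts. Whether these peaks hold copied sequence was not tested. No genome was at hand, so no peak was assigned to a gene and no sequence is shown.

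Each library was scaled by its total in peaks, including 548 peaks without a position. Ratios are log2 of sorted over unsorted, with a prior count of 0.5 for single peaks. Intervals are 95% exact Clopper-Pearson intervals of the sorted share of the reads. They cover counting error only and take every read as independent. Any PCR copies left among the reads would make the intervals too narrow. The intervals were tested on simulated data drawn as independent reads. Standard deviations from counting error were computed from the reads of each peak as the root of the mean variance. Scalings tried were TMM factors (edgeR 4.0.16), DESeq2 1.42.0 size factors, the 5000 most covered peaks and the chromosome peaks. Computation used Python 3.11.15, NumPy 2.4.6, pandas 2.3.3 and SciPy 1.17.1.

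Peaks named by position were the 10 most covered, the 5 with the highest ratios and the 5 with the lowest, ranked on whichever interval bound lies closer to 0, 3 on each side of the threshold, and those of the scaffolds with the most highly covered peaks. Scaffolds with 9 such peaks tied and are all named. The peaks and rules were chosen with earlier results of these data known.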

Additional observations from a re-analysis of the deposited data

How the results depend on the processing

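Scalings add 1 constant to every ratio, from -0.067 to 0.16, so they change its level and not the order of peaks. The log2 share ratio of the highly covered scaffold peaks was -0.26 under TMM scaling, -0.23 by the size factors of DESeq2, -0.25 when chromosome peaks set the scale and -0.039 when the 5000 most covered peaks did, among which these peaks lie. Their median was -0.24, -0.23 and -0.014 under the TMM, chromosome and 5000-peak scalings, the last of which left 1 peak at 2-fold. With thresholds of 300, 600 and 1000 reads there were 1178, 372 and 153 peaks, with log2 share ratios of -0.19, -0.22 and -0.24. The last 2 thresholds left 216 and 96 scaffolds and medians of -0.21 and -0.28. Shares of peaks on scaffolds with 3 or more peaks were 9.19%, 5.92% and 6.01%. All-high scaffolds numbered 7 at 600 and 2 at 1000 reads. Peaks past 2-fold numbered 4 at 300 and 0 at 1000 reads, by these ratios of scaled counts, with no test. The median difference from chromosome peaks was -0.036 (-0.12 to 0.053) at 600 reads, and -0.17 (-0.35 to 0.0025) both at 1000 reads and in that class, against 0.033 (-0.030 to 0.097), so that all intervals include 0. In the class it was -0.050 without the run of peaks on chromosome 10. A 1.5-fold rule took 48 peaks and a 3-fold rule 1. Scaffolds with 2 or more peaks gave 8.08% and 42 all-high scaffolds, and those with 5 or more peaks 6.14% and 2. The log2 share ratio was -0.18 without the 10 most covered peaks, -0.20 without scaffold_499, which holds both the most peaks and the most reads, and -0.22 without scaffold_499, scaffold_1360, scaffold_236 and scaffold_837. The last setting gave a share of 5.79% and, like leaving out the run, was chosen after seeing the data. The other 38 of 78 values stayed within 1.5 times for counts, or within the interval of the value reported. Of 125 values of the 25 named peaks under other scalings or a prior count of 5, 121 kept their side of 0, and the rest belonged to peaks whose interval included 0. No paired analysis was possible because a single library stood in each group. Depth limits single peaks: for 364 of the 746 the interval of the ratio includes 0.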
